A study of Arabidopsis thaliana with 24 samples.

Results

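Transcripts of 5 genes of the endoplasmic reticulum (ER) were followed in *Arabidopsis thaliana* seedlings, namely *CRT1b*, *ATERDJ3B* and *DER1*, whose products fold or dispose of ER proteins, and *BZIP60* and *BZIP28*, which encode the transcription factors of the ER stress response. They were chosen by name, with earlier results of these data known. The number of them called, set beside the share of all probe sets, is therefore a description. The array annotation gave 6 probe sets for them among 22810. One probe set for each gene lay among the 72.7% of highest mean signal that were tested. The lines compared on 24 ATH1 arrays were wild-type Col-0, *atl9* (labelled rre1-1, a T-DNA insertion in the RING-type ubiquitin ligase gene *ATL9*) and *rre2* (labelled rre2-1, a T-DNA insertion in *ATL2*, a gene of the same family), with both mutants in the Col-0 background and each represented by 1 insertion line. Seedlings 14 days old, kept in shaken liquid medium under constant light and harvested whole, received acid-hydrolysed crab-shell chitin at 100 mg/L, or the same volume of water (mock), for 30 min. With 3 lines and 2 treatments there were 6 groups, each of 4 biological replicates on 1 array each. Values are signal intensities divided by the median of their array, so that a value of 1 is the median probe set, and a difference is given as log2. Levels of different probe sets are not comparable with one another and were not compared.

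Proteins that enter the secretory pathway fold in the ER lumen with the help of the Hsp70 chaperone BiP, its J-domain partners and the lectin chaperones calnexin and calreticulin, which hold glycoproteins until they are folded. Proteins that fail are sent back to the cytosol through membrane complexes that contain derlins and are degraded by the proteasome, a route called ER-associated degradation. When unfolded proteins accumulate, bZIP28 is released from the membrane by proteolysis and the mRNA of *BZIP60* is spliced by IRE1, and both factors then switch on chaperone genes. In plant immunity this machinery is known for the maturation of receptor kinases of the cell surface, among them receptors for microbial patterns.

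The transcripts fell into 2 patterns by gene. *BZIP60* was about 2.8 times higher after chitin in Col-0, in *atl9* and in *rre2* alike, and its level was nearly the same in the 3 lines under each treatment. *CRT1b*, *ATERDJ3B* and *DER1* were all below their Col-0 level in *atl9* after chitin, at 0.548, 0.642 and 0.732 times that level. In *rre2* after chitin *CRT1b* and *DER1* were at 0.759 and 0.816 times the Col-0 level, which did not pass. No gene was called between the mutants, or for a chitin response that differed between *atl9* and Col-0. *CRT1b* was itself 1.33 times higher after chitin in Col-0. *BZIP28* was 1.46 times higher after chitin in Col-0, with log2 differences near 0.4 in both mutants that did not pass the test.

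**Figure D1:**
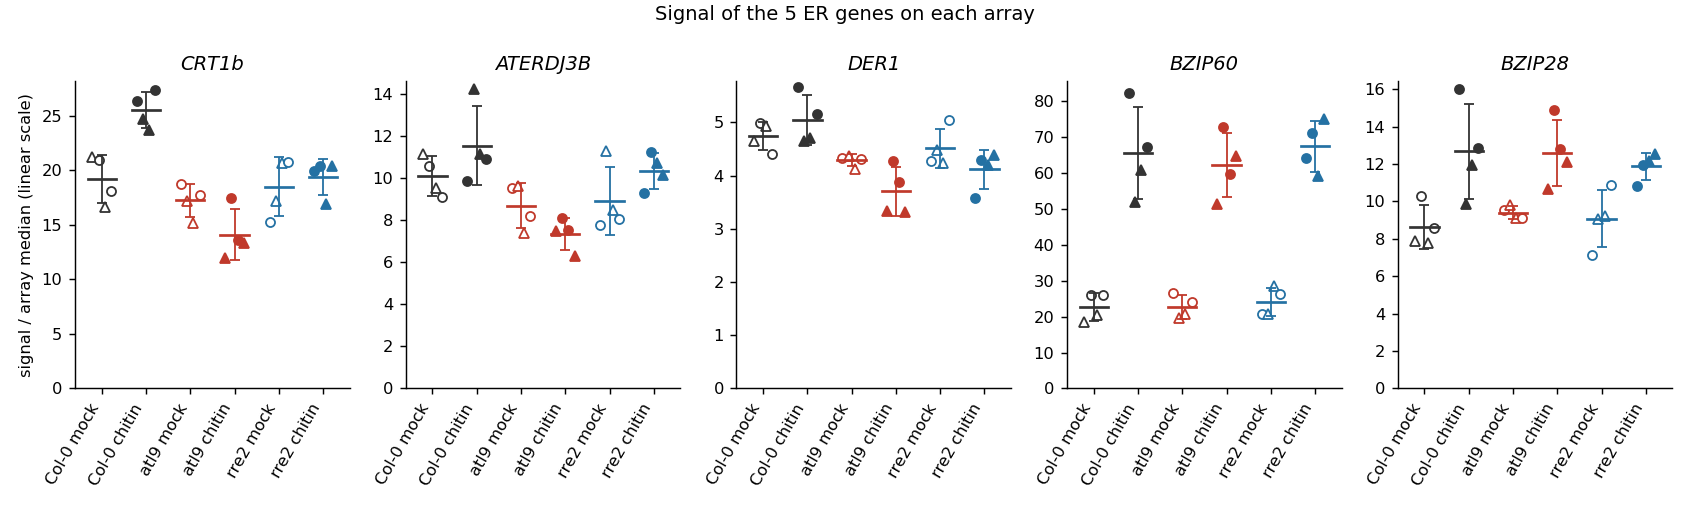
Signal divided by the array median on each array (vertical axes, linear, from 0) for the 5 tested probe sets, by line and treatment. Open symbols are mock and filled symbols chitin, circles are arrays of the last scan day and triangles those of earlier days, and lines and bars are the mean and SD of 4 arrays. *CRT1b* in Col-0 after chitin (23.7 to 27.4) lies above all other groups, and *BZIP60* after chitin (51.5 to 82.5) lies above all mock arrays (18.5 to 28.6). The shares of all probe sets separate in these ways were not computed.

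The array as a whole bears on these values in a few ways. The median signal of the arrays was lower after chitin in every line, with means of 176 and 153 in Col-0, 179 and 159 in *atl9* and 174 and 153 in *rre2* for mock and chitin. Leaving out the division by the median therefore shifts the chitin responses of all genes together. On the values as deposited the median log2 response of all probe sets tested was -0.16 in Col-0, -0.16 in *atl9* and -0.17 in *rre2*. Quantile normalization does not shift all genes alike. In Col-0 it put the median response of all probe sets at -0.05, against 0.05 as reported, and *CRT1b* at 0.10, against 0.41. Mock and chitin arrays were washed on different fluidics modules, so the module cannot be told apart from the treatment. The arrays were scanned on 4 days, and each group had 2 arrays on the last of them. The earlier days were not balanced. *atl9* had no array on day 1, where Col-0 and *rre2* had 1 in each group. Col-0 after chitin and both *rre2* groups had none on day 2, and Col-0 mock had none on day 3. With group means removed, arrays of different groups had a mean correlation of 0.087 on the same day and -0.042 on different days. Of the genes listed as markers, 4 of 10 for green shoot tissue and 4 of 11 for root had a probe set annotated to that gene alone, and all 8 were above the array median on every array. *ATL9* and *ATL2* are not analysed here.

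*CRT1b* encodes a calreticulin, a lectin chaperone that binds calcium and glycoproteins in the ER lumen. In Col-0 it measured 21.2, 20.9, 16.6 and 18.1 on the mock arrays and 26.3, 24.7, 23.7 and 27.4 after chitin. In *atl9* it measured 18.8, 17.2, 15.2 and 17.8 in mock and 12, 17.5, 13.7 and 13.3 after chitin. In *rre2* it measured 15.3, 17.2, 20.7 and 20.8 in mock and 19.9, 20.4, 16.9 and 20.4 after chitin. All 4 Col-0 arrays after chitin were higher than every other array. The arrays of *atl9* after chitin were lower than those of the other groups except for the second replicate, which lay among the mock values. Of all probe sets tested, 14.2% were higher after chitin than in mock in Col-0 without overlap. The shares separate from all other groups were not computed. In the order of the means, 25.5 ± 1.65 (SD, n = 4) in Col-0 after chitin was followed by 19.4 ± 1.68 in *rre2* after chitin, 19.2 ± 2.22 in Col-0 mock, 18.5 ± 2.71 in *rre2* mock, 17.2 ± 1.53 in *atl9* mock and 14.1 ± 2.37 in *atl9* after chitin. Apart from the first, neighbouring groups in this order overlapped.

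*ATERDJ3B* encodes a J-domain protein of the ER lumen that delivers clients to BiP. In Col-0 it measured 11.1, 10.6, 9.53 and 9.10 in mock and 9.85, 14.2, 11.1 and 10.9 after chitin. In *atl9* it measured 9.50, 9.60, 7.40 and 8.19 in mock and 7.49, 8.10, 7.53 and 6.29 after chitin. In *rre2* it measured 7.78, 11.3, 8.47 and 8.02 in mock and 9.26, 11.2, 10.7 and 10.1 after chitin. One array of Col-0 after chitin, at 14.2, and 1 of *rre2* mock, at 11.3, stood above the rest of their groups. Both were scanned on the first day, as were 11.1 in Col-0 mock, the highest of its group, and 10.7 in *rre2* after chitin, which was not. *atl9* had no array on that day. The group means ran from 11.5 ± 1.87 in Col-0 after chitin through 10.3 ± 0.838 in *rre2* after chitin, 10.1 ± 0.938 in Col-0 mock, 8.89 ± 1.63 in *rre2* mock and 8.67 ± 1.06 in *atl9* mock to 7.35 ± 0.760 in *atl9* after chitin (SD, n = 4). Neighbouring groups overlapped throughout, whereas the 4 arrays of *atl9* after chitin lay below all 8 arrays of Col-0 and all 4 of *rre2* after chitin. The share of all probe sets with this separation was not computed.

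*DER1* encodes a derlin, a membrane protein of the ER-associated degradation route. Its tested probe set measured 4.65, 5.00, 4.93 and 4.41 in Col-0 mock and 5.66, 4.66, 4.71 and 5.16 in Col-0 after chitin. In *atl9* it measured 4.34, 4.38, 4.13 and 4.32 in mock and 3.33, 4.28, 3.88 and 3.32 after chitin. In *rre2* it measured 4.27, 4.49, 4.25 and 5.04 in mock and 3.59, 4.29, 4.21 and 4.39 after chitin. Every *atl9* array, mock or chitin, was below every Col-0 array, by as little as 4.38 against 4.41. For all probe sets, the share with this separation over both treatments together was not computed. After chitin the *rre2* arrays were also all below those of Col-0. The means ran from 5.05 ± 0.466 in Col-0 after chitin and 4.75 ± 0.270 in Col-0 mock over 4.51 ± 0.370 in *rre2* mock, 4.29 ± 0.113 in *atl9* mock and 4.12 ± 0.362 in *rre2* after chitin to 3.70 ± 0.467 in *atl9* after chitin (SD, n = 4), and neighbours in this order overlapped. The other probe set annotated to *DER1* ranked 20174 of 22746 by mean signal, lay between 0.00486 and 0.197 of the array median and was left out by the filter on low values. It therefore bears on none of the results for this gene.

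*BZIP60* encodes the factor whose mRNA is spliced under ER stress, and the probe set reads the level of the mRNA without telling the spliced from the unspliced form. In Col-0 it measured 18.5, 26.0, 20.4 and 26.1 in mock and 82.5, 51.9, 60.8 and 67.2 after chitin. In *atl9* it measured 26.7, 19.6, 20.6 and 24.1 in mock and 51.5, 72.9, 59.9 and 64.8 after chitin. In *rre2* it measured 20.8, 20.7, 28.6 and 26.2 in mock and 64.4, 71.1, 59.3 and 75.1 after chitin. The 12 mock arrays and the 12 chitin arrays were separate, and within each treatment the lines overlapped widely. Of all probe sets tested, 14.2% in Col-0, 9.77% in *atl9* and 9.93% in *rre2* were higher after chitin with no overlap. The share separate over the 3 lines together was not computed. The means after chitin were 67.5 ± 7.03 in *rre2*, 65.6 ± 12.9 in Col-0 and 62.3 ± 8.97 in *atl9*, and in mock 24.1 ± 3.96 in *rre2*, 22.8 ± 3.28 in *atl9* and 22.7 ± 3.89 in Col-0 (SD, n = 4). The order within a treatment is smaller than the spread of any of these groups.

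*BZIP28* encodes the membrane-tethered factor of the same response. In Col-0 it measured 7.88, 10.3, 7.78 and 8.59 in mock and 16, 9.87, 12 and 12.9 after chitin. In *atl9* it measured 9.52, 9.82, 9.13 and 9.14 in mock and 10.6, 14.9, 12.8 and 12.1 after chitin. In *rre2* it measured 7.15, 9.05, 9.21 and 10.9 in mock and 10.8, 11.9, 12.2 and 12.5 after chitin. Mock and chitin did not overlap in *atl9*, where 9.77% of all probe sets tested were higher after chitin without overlap. They overlapped by 1 array on each side in Col-0 and in *rre2*. The means were 12.7 ± 2.55 in Col-0, 12.6 ± 1.76 in *atl9* and 11.9 ± 0.737 in *rre2* after chitin, and 9.41 ± 0.334 in *atl9*, 9.07 ± 1.53 in *rre2* and 8.63 ± 1.17 in Col-0 in mock (SD, n = 4). *atl9* in mock had the narrowest spread of the 6 groups.

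The response to chitin was tested within each line with limma, with p-values adjusted over all probe sets tested and a threshold of 0.05. In Col-0, *BZIP60* rose by a log2 difference of 1.52 (SE 0.17, adjusted p = 8.96e-06), *BZIP28* by 0.54 (SE 0.15, adjusted p = 0.0187) and *CRT1b* by 0.41 (SE 0.13, adjusted p = 0.0365). These are 3 of the 5 genes, where 11.4% of all probe sets tested were higher after chitin by the same threshold and 17.0% changed in either direction. *ATERDJ3B*, at 0.18 with a 95% interval of -0.10 to 0.47 (adjusted p = 0.389), and *DER1*, at 0.09 with an interval of -0.14 to 0.31 (adjusted p = 0.637), did not pass. The median of the 5 differences was 0.41, against 0.05 over all probe sets tested.

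The rise of *CRT1b* in Col-0 was the least stable of these calls. On the values as deposited it was 0.21 (adjusted p = 0.188) and after quantile normalization 0.10 (adjusted p = 0.574), and it also missed the threshold without any 1 of the 4 Col-0 arrays after chitin or without Col-0 mock replicate 3 or 4, at log2 differences of 0.35 to 0.45 in these 6 fits. The summed signal of the 4 shoot markers was also higher after chitin in Col-0, between 82.8 and 116 in mock and between 159 and 197 after chitin. That of the 4 root markers lay between 94.7 and 113 in mock and between 112 and 135 after chitin. In *atl9* the mean shoot sum was 117 in mock and 136 after chitin, where *CRT1b* was at 17.2 and 14.1. In *rre2* the mean shoot sum was 107 and 91.8, where *CRT1b* was at 18.5 and 19.4. The part of the markers in the result was not tested. As whole seedlings were extracted, a change in the share of cells of a type and a change in RNA per cell cannot be told apart. For *BZIP28* in Col-0 the difference was 0.31 after quantile normalization (adjusted p = 0.0618), and it missed the threshold narrowly without Col-0 mock replicate 1 or 3 or Col-0 chitin replicate 1 or 4, at 0.42 to 0.53.

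In *atl9*, *BZIP60* was the only one of the 5 genes called after chitin, with a rise of 1.45 (SE 0.17, adjusted p = 1.22e-05), where 7.57% of all probe sets were higher. *BZIP28* was at 0.41 with an interval of 0.10 to 0.73 (adjusted p = 0.0975). The 3 folding and degradation genes had negative values. *CRT1b* was at -0.30 (interval -0.57 to -0.03, adjusted p = 0.190), *ATERDJ3B* was at -0.24 (interval -0.52 to 0.05, adjusted p = 0.367), and *DER1* at -0.22 (interval -0.45 to 0.01, adjusted p = 0.269). None of these passed as reported, whereas *CRT1b* and *DER1* were called lower on the values as deposited (-0.47 and -0.39) and after quantile normalization (-0.55 and -0.31), and *CRT1b* without *atl9* chitin replicate 2 (-0.41, adjusted p = 0.0452).

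In *rre2*, *BZIP60* rose by 1.49 (SE 0.17, adjusted p = 7.63e-06), again as the only one of the 5 called, where 8.29% of all probe sets were higher. *BZIP28* was at 0.40 with an interval of 0.07 to 0.74 (adjusted p = 0.128) and *ATERDJ3B* at 0.23 with an interval of -0.08 to 0.53 (adjusted p = 0.387). *CRT1b*, at 0.08 (interval -0.19 to 0.35), and *DER1*, at -0.13 (interval -0.37 to 0.10), had intervals on both sides of 0. On the values as deposited *DER1* was called lower, at -0.31 (adjusted p = 0.0365).

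**Figure D2:**
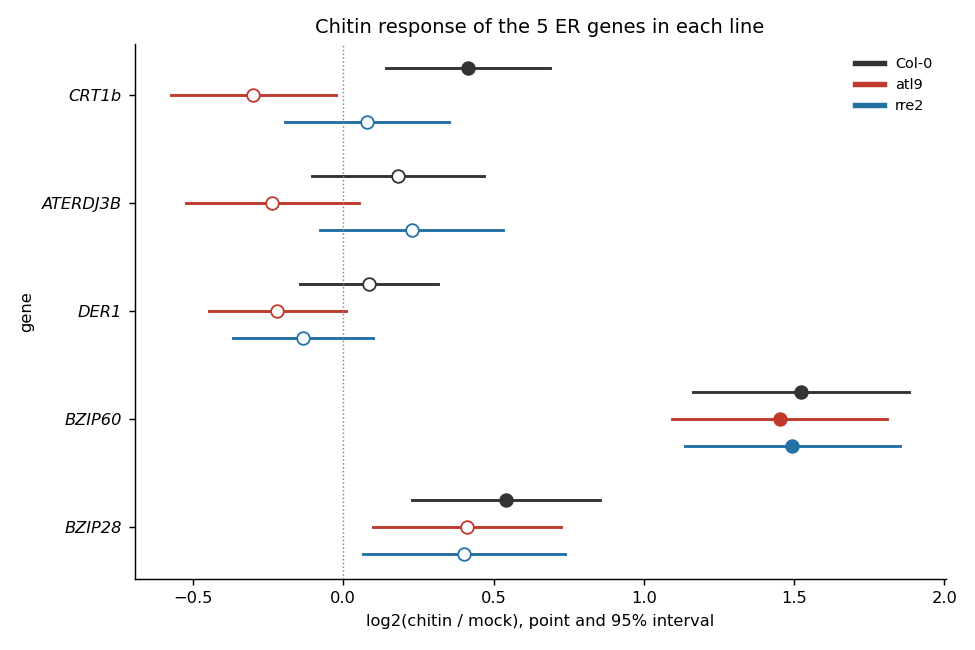
Log2 of chitin over mock (horizontal axis) for each gene in Col-0, *atl9* and *rre2*, with 95% intervals from the limma fit. Filled points passed an adjusted p of 0.05 over all probe sets tested. The 3 values of *BZIP60* lie between 1.45 and 1.52, and those of *CRT1b* at 0.41, -0.30 and 0.08.

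The size of the *BZIP60* response held across scan days. Where a mock and a chitin array of a line were scanned on the same day, the log2 difference was 1.48 and 1.51 in Col-0, 1.40, 1.65 and 1.38 in *atl9* and 1.52, 1.39 and 1.53 in *rre2*. For *BZIP28* these within-day differences were 0.33 and 0.61 in Col-0, 0.12, 0.40 and 0.57 in *atl9* and 0.43, 0.45 and 0.37 in *rre2*. Both genes were thus higher after chitin on every day that held both treatments of a line. For *CRT1b* the within-day differences were 0.22 and 0.46 in Col-0, -0.52, -0.19 and -0.24 in *atl9* and -0.02, -0.02 and 0.18 in *rre2*. Each of these rests on 1 or 2 arrays per treatment and carries no test.

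The lines were then compared with each other under the same treatment, which asks how the loss of each RING gene goes with the level of the ER transcripts. With chitin, *atl9* had less transcript than Col-0 for 3 of the 5 genes, where 7.05% of all probe sets tested were lower. *CRT1b* was lower by a log2 difference of -0.87 (SE 0.13, interval -1.14 to -0.59, adjusted p = 0.00111), *ATERDJ3B* by -0.64 (SE 0.13, interval -0.93 to -0.35, adjusted p = 0.00803) and *DER1* by -0.45 (SE 0.11, interval -0.68 to -0.22, adjusted p = 0.0152). For each of the 3 genes all 4 *atl9* arrays were below all 4 Col-0 arrays, as they were for 10.5% of all probe sets tested. *BZIP60*, at -0.07 with an interval of -0.42 to 0.29, and *BZIP28*, at 0.00 with an interval of -0.31 to 0.32, did not pass.

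These 3 calls held without any 1 of the 16 arrays, with values of -0.98 to -0.79 for *CRT1b*, -0.71 to -0.53 for *ATERDJ3B* and -0.52 to -0.39 for *DER1*, and under 9 of 10 other settings. The exception was the fit on the last scan day alone, with 2 arrays per group, which called no probe set at all in this comparison and put *CRT1b* at -0.80 (adjusted p = 0.124), *ATERDJ3B* at -0.41 (adjusted p = 0.267) and *DER1* at -0.41 (adjusted p = 0.245). On day 3, with 1 array per line, the differences were -0.83, -0.82 and -0.50. The summed shoot markers after chitin were 159 to 197 in Col-0 and 92.0 to 175 in *atl9*, and the root markers 112 to 135 and 114 to 130, and the part of either in the result was not tested.

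In mock, none of the 5 genes was called between *atl9* and Col-0 by limma, and none had an unadjusted p under 0.05, against 6.82% of all probe sets tested. Over all probe sets 0.00605% were called in this comparison, a single one. *CRT1b* was at -0.15 (interval -0.43 to 0.12), *ATERDJ3B* at -0.22 (interval -0.51 to 0.06) and *DER1* at -0.14 (interval -0.37 to 0.08), although the arrays of *DER1* did not overlap, as in 2.71% of all probe sets, which lay lower in *atl9* without overlap. Averaged over mock and chitin the same 3 genes were lower in *atl9*, where 3.78% of all probe sets were. For *CRT1b*, *ATERDJ3B* and *DER1* in that order the values were -0.51, -0.43 and -0.30 (SE 0.09, 0.10 and 0.08). With the scan day as a block only *CRT1b* of them stayed called.

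Whether the chitin response itself differed between the lines is a separate test, and it called none of the 5 genes, and 0.454% of all probe sets. At an unadjusted p under 0.05 were 2 of the 5 and 14.3% of all probe sets. Subtracting the Col-0 response from that of *atl9* left -0.71 for *CRT1b* (SE 0.18, interval -1.10 to -0.33, unadjusted p = 0.00129, adjusted p = 0.0941) and -0.42 for *ATERDJ3B* (SE 0.19, interval -0.82 to -0.01, unadjusted p = 0.0439, adjusted p = 0.332). Without *atl9* chitin replicate 2, the highest of its group, *CRT1b* was at -0.82 and passed (adjusted p = 0.0359). *DER1* was at -0.31 (interval -0.63 to 0.02), *BZIP60* at -0.07 (interval -0.58 to 0.44) and *BZIP28* at -0.13 (interval -0.57 to 0.31). The difference between *atl9* and Col-0 in the folding and degradation genes was thus called after chitin, while its increase over the difference in mock was not.

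**Figure D3:**
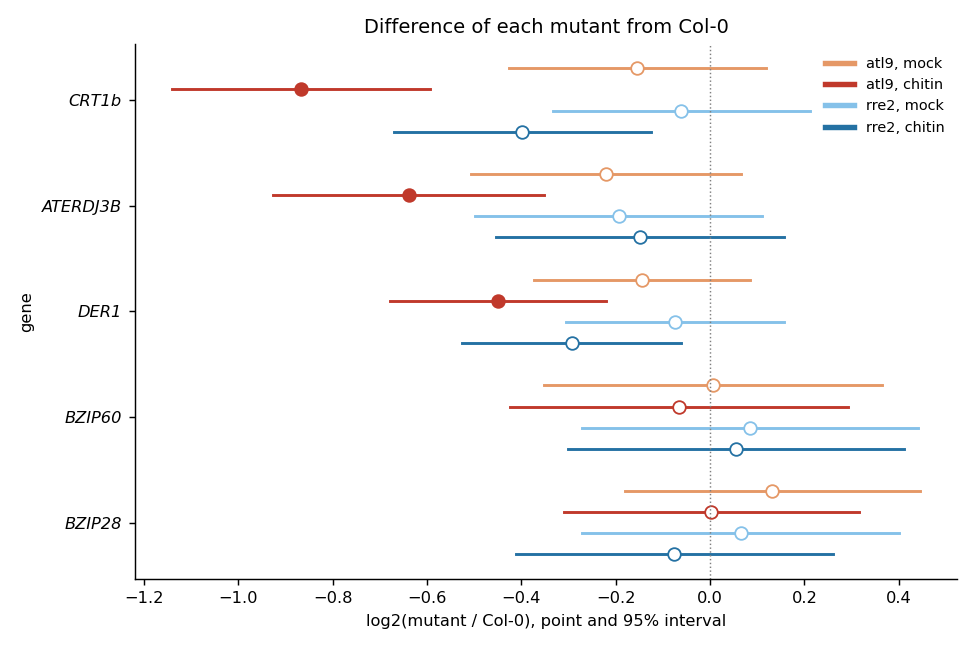
Log2 of mutant over Col-0 (horizontal axis) for each gene in mock and after chitin, with 95% intervals from the limma fits. Filled points passed an adjusted p of 0.05. The filled points are *CRT1b*, *ATERDJ3B* and *DER1* in *atl9* after chitin, at -0.87, -0.64 and -0.45, and all values of *BZIP60* and *BZIP28* lie between -0.08 and 0.13.

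In *rre2* none of the 5 genes differed from Col-0 past the threshold after chitin by limma, where 4.49% of all probe sets tested were called lower. At an unadjusted p under 0.05 were 2 of the 5, and 23.5% of all probe sets. *CRT1b* was at -0.40 (SE 0.13, interval -0.67 to -0.13, adjusted p = 0.0721) and *DER1* at -0.29 (SE 0.11, interval -0.53 to -0.06, adjusted p = 0.116), and for both genes the 4 *rre2* arrays lay below the 4 Col-0 arrays, as they did for 8.68% of all probe sets. *ATERDJ3B* was at -0.15 (interval -0.45 to 0.16), *BZIP60* at 0.06 (interval -0.30 to 0.41) and *BZIP28* at -0.08 (interval -0.41 to 0.26). *CRT1b* passed on the values as deposited (-0.39, adjusted p = 0.0402), after quantile normalization (-0.39, adjusted p = 0.0443) and with the stricter filter (-0.40, adjusted p = 0.0466). The summed shoot markers in *rre2* after chitin were 73.9 to 111, below all Col-0 arrays of that treatment, and the root markers 109 to 142, and their part in these values was not tested. In mock none of the 5 was called or had an unadjusted p under 0.05, against 5.78% of all probe sets at that unadjusted p, and no probe set of the whole array was called. *CRT1b* was then at -0.06, *ATERDJ3B* at -0.19 and *DER1* at -0.07. Averaged over mock and chitin, *CRT1b* was at -0.23 (interval -0.42 to -0.04, adjusted p = 0.184) and *DER1* at -0.18 (interval -0.35 to -0.02, adjusted p = 0.214), and limma called none of the 5 and 2.86% of all probe sets. These 2 genes, and 18.5% of all probe sets, had an unadjusted p under 0.05. The response in *rre2* minus that in Col-0, for which 0.151% of all probe sets were called, was -0.34 for *CRT1b* (interval -0.72 to 0.05), 0.05 for *ATERDJ3B* (interval -0.39 to 0.48) and -0.22 for *DER1* (interval -0.55 to 0.11), and none of the 5 passed or had an unadjusted p under 0.05, against 13.1% of all probe sets.

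Both mutants were compared with the same Col-0 arrays, so these values are not independent of each other, and the mutants were also set against each other directly in a fit of all 24 arrays. After chitin *rre2* minus *atl9* was 0.47 for *CRT1b* (SE 0.13, interval 0.20 to 0.74, adjusted p = 0.171) and 0.49 for *ATERDJ3B* (SE 0.14, interval 0.21 to 0.77, adjusted p = 0.178). The *ATERDJ3B* arrays of the mutants did not overlap, as in 3.09% of all probe sets, which were higher in *rre2* without overlap, and those of *CRT1b* overlapped by the second replicate of *atl9*. *DER1* was at 0.16 (interval -0.06 to 0.37). None of the 5 passed, and 0.00605% of all probe sets were called. At an unadjusted p under 0.05 were 2 of the 5 and 12.1% of all probe sets. Without *atl9* chitin replicate 2 *CRT1b* passed, at 0.58 (adjusted p = 0.0262). The response in *rre2* minus that in *atl9* was 0.38 for *CRT1b* (interval 0.00 to 0.75), 0.46 for *ATERDJ3B* (interval 0.06 to 0.86) and 0.09 for *DER1* (interval -0.22 to 0.39), none of them past the threshold after adjustment, and 0% of all probe sets were called. For *BZIP60* the 8 comparisons between lines ran from -0.07 to 0.12 and for *BZIP28* from -0.08 to 0.13, with no adjusted p below 0.735.

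**Figure D4:**
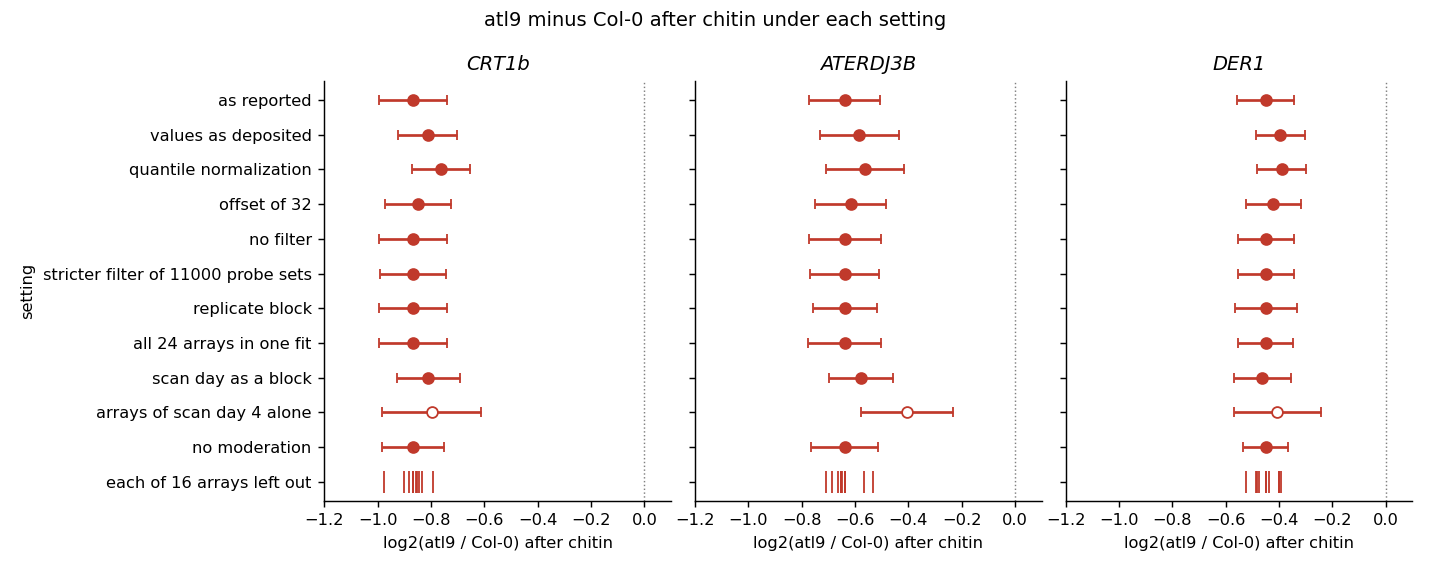
Log2 of *atl9* over Col-0 after chitin (horizontal axes) for *CRT1b*, *ATERDJ3B* and *DER1* under each setting of the processing (rows), with bars of 1 SE, and, in the last row, a mark for each fit that left out 1 of the 16 arrays. Filled points and red marks passed an adjusted p of 0.05. The open points are those of the last scan day alone, at -0.80, -0.41 and -0.41.

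Other genes of the ER were read from 5 lists that hold 85 genes besides the 5. Of these, 25 had a probe set annotated to that gene alone, and 24 were tested. The annotation used did not list 8730 probe sets and gave several genes for 503. The other genes of the lists may therefore be on the array, and the 24 do not cover the pathway. In Col-0 after chitin 2 of the 24 (8.33%) were called higher, a smaller share than the 11.4% of all probe sets. They were *SEC61A2*, a subunit of the Sec61 channel through which new proteins enter the ER (0.36, SE 0.12, adjusted p = 0.0487), and *SPC18B*, a subunit of signal peptidase (0.28, SE 0.09, adjusted p = 0.0412). Their calls were lost on the values as deposited, after quantile normalization and when most single arrays were left out. In *atl9* and in *rre2* after chitin limma called 0 of the 24, with 1 and 0 at an unadjusted p under 0.05, against 20.5% and 23.1% of all probe sets. The median over the 24 was 0.08 in Col-0, -0.04 in *atl9* and -0.01 in *rre2*, against 0.05, 0.01 and 0.00 over all probe sets tested.

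Between *atl9* and Col-0 after chitin, 3 of the 24 (12.5%) were lower in the mutant and 0 higher, where 7.05% of all probe sets were lower, and all 3 belong to the list of translocation into the ER and N-glycosylation, of which 12 genes were tested. *SEC61A1*, a further Sec61 channel gene, was lower by -0.83 (SE 0.19, adjusted p = 0.0124). It measured 9.43, 7.32, 6.52 and 7.80 on the Col-0 arrays and 3.40, 5.68, 4.83 and 3.77 on those of *atl9*. These did not overlap, as in 10.5% of all probe sets tested, which lay lower in *atl9* without overlap. *SEC61A2* was lower by -0.42 (SE 0.12, adjusted p = 0.0327), and *OST1A*, of the oligosaccharyltransferase that attaches glycans to new proteins, by -0.39 (SE 0.10, adjusted p = 0.0245). *SEC61A1* kept its call without any 1 of the 16 arrays, *OST1A* in 11 and *SEC61A2* in 10 of these 16 fits. The median of this list was -0.35, with 11 of its 12 genes below 0. Over all probe sets tested the median was -0.02, so the larger part of these was below 0 too, and the exact share was not computed. Its 1 gene above 0 was *SEC61A3*, at 0.74 (adjusted p = 0.181).

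In the other lists no gene was called between *atl9* and Col-0 after chitin. The chaperone and folding list had 3 tested genes, of which *CNX2*, a calnexin, was at -0.37 (adjusted p = 0.128) and the J-domain genes *ATERDJ2A* and *ATERDJ2B* at -0.06 and -0.13. The degradation list had 5, with *DER2.1* and *DER2.2*, further derlins, at 0.24 and -0.19 and a median of -0.01. Among the ER stress sensors and factors *BZIP17*, a relative of *BZIP28*, was at 0.02, and *S1P* and *S2P*, the proteases that release such factors from the membrane, at 0.17 and 0.14. Over both treatments 3 of the 24 were called lower in *atl9*, where 3.78% of all probe sets were, namely *SEC61A1*, *OST1A* and *OST1B*, at -0.48, -0.27 and -0.35. *SEC61A1* and *OST1A* kept these calls in 3 and *OST1B* in 11 of the 16 fits without 1 array, and in 5, 7 and 7 of 10 other settings. Between *rre2* and Col-0 limma called 0 of the 24 after chitin, with 3 (12.5%) at an unadjusted p under 0.05, against 23.5% of all probe sets, and the median of the translocation and glycosylation list was -0.21.

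**Figure D5:**
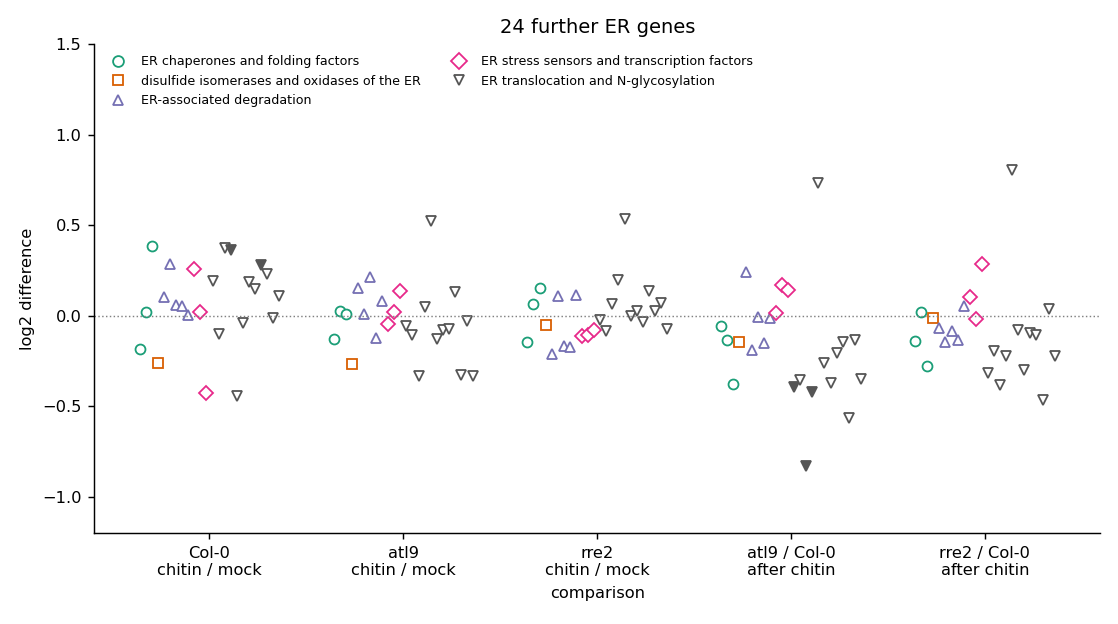
Log2 difference (vertical axis) of the 24 further ER genes in 5 comparisons (horizontal axis), with a symbol for each list. Filled symbols passed an adjusted p of 0.05: *SEC61A2* and *SPC18B* in Col-0 (0.36 and 0.28), and *SEC61A1*, *SEC61A2* and *OST1A* in *atl9* against Col-0 (-0.83, -0.42 and -0.39).

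Across the 24 arrays the 5 genes varied in 2 sets. *BZIP60* and *BZIP28* had a Pearson correlation of 0.87, *CRT1b* had 0.76 with *DER1* and 0.71 with *ATERDJ3B*, and *DER1* had 0.56 with *ATERDJ3B*. Between the sets it ran from -0.16 for *DER1* and *BZIP60* to 0.24 for *CRT1b* and *BZIP28*. With the group means removed, *DER1* and *BZIP28* were at 0.76 and *CRT1b* and *BZIP60* at 0.62, so that the split into 2 sets is one of group means and not of the arrays within groups. The arrays share groups, scan days and scaling, and these correlations are a description.

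Of the 9006 tested probe sets with 1 annotated gene, those most like each of the 5 over the 24 arrays were, for *CRT1b*, *AT3G15640* (Pearson correlation 0.92), *TPI*, a triosephosphate isomerase of glycolysis (0.90), and *AT2G21160* (0.90). For *BZIP60* they were *PUB24*, a U-box ubiquitin ligase (0.99), *AT5G35735* (0.99) and *AT1G18740* (0.98). For *BZIP28* they were *AT3G52800*, *AT3G02880* and *AT1G63720* (0.89 each). The likeness was lower for *ATERDJ3B*, with *AT2G04400* at 0.82, *AT5G56710* at 0.81 and *AT1G61770* at 0.79, and for *DER1*, with *AT3G08630*, *AT3G16200* and *AT5G54970* at 0.80, 0.80 and 0.79. None of these 15 genes is on the ER lists.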

How the data were processed

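Signals of 24 ATH1 arrays, 15 µg of cRNA each, were used. The deposited values are the authors' intensity values on a linear scale, extracted with GCOS 1.1 (MAS 5.0 signals) and scaled to a target of 500 per array, and other deposited text files of instrument settings gave scan day and fluidics module. The later steps in GeneSpring (version 7.0 or 6.0 by source) are not contained in the values. No further column of the signal tables was read. The chitin-treated Col-0 samples are called untreated in 1 label and chitin in others, and were taken as chitin-treated.

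Each array was divided by its median over 22746 non-control probe sets (64 controls were left out) and log2 was taken without an offset. The 72.7% with the highest mean log2 signal were tested, a share set by the number of genes the study defined as present. Probe sets were named from the platform annotation and TAIR10.1 gene names: 13513 had 1 gene, 503 several and 8730 were not listed. Tests used R 4.3.3 with limma 3.58.1 (lmFit, eBayes, Benjamini-Hochberg over all probe sets tested, adjusted p under 0.05). A figure legend of the study names a two-way ANOVA as the statistic for its clustering, with a p threshold other than the one used here. In its place stand the contrasts of a fit of group means on the 16 arrays of Col-0 and 1 mutant. Comparisons between the mutants used all 24 arrays. Intervals are 95% intervals of these fits. The fit was tested on simulated data. For arrays there is no read depth, and precision depends on how many there are.

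The members, lists and comparisons were chosen with earlier results of these data known. Named are the 5 genes, the list genes called in a comparison (with relatives of the 5 in the lists, *CNX2*, *ATERDJ2A*, *ATERDJ2B*, *DER2.1*, *DER2.2*, *BZIP17*, *S1P*, *S2P* and *SEC61A3*, named after their values were seen), and the 3 probe sets most correlated with each of the 5. Alternative settings were the unscaled deposited values, quantile normalization, adding 32 before log2, dropping the filter or keeping 11000 probe sets (the stricter filter), blocking on replicate number or on scan day, fitting all 24 arrays together (for the mutants, their 16 arrays alone), the last scan day alone, no moderation of the variance, and each array left out in turn.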

Additional observations from a re-analysis of the deposited data

Results flagged for a closer look

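*CRT1b* in *rre2* after chitin measured 16.9 on replicate 3, against 19.9 to 20.4 on the other 3 arrays of the group, a gap of 0.863 of the group's range. It was the only array that stood apart in this way among the 30 groups of 4 arrays checked (5 genes in 6 groups), where chance alone gives about 1 in 20.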

How the results depend on the processing

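*BZIP60* rose after chitin in each line under all 10 settings and without any 1 array, and no setting called it or *BZIP28* between lines. The number of the 5 genes called changed as follows. After chitin in Col-0 it was 2 on the values as deposited and without a filter, in place of 3. It was 1 there after quantile normalization and on scan day 4 alone, and 1 to 3 without 1 array. In *atl9* it was 3, in place of 1, on the values as deposited and after quantile normalization, and 1 to 2 without 1 array, and in *rre2* 2 on the values as deposited. For *atl9* against Col-0 after chitin it was 0 in place of 3 on scan day 4 alone. For *atl9* against Col-0 over both treatments it was 2 in place of 3 without a filter and with the replicate block. It was 1 there when blocked on scan day, 0 on scan day 4 alone and 2 to 3 without 1 array. For *rre2* against Col-0 after chitin it was 1 in place of 0 on the values as deposited, after quantile normalization and with the stricter filter. Without 1 array it was 0 to 1 for the response of *atl9* minus that of Col-0 and for *rre2* minus *atl9* after chitin. The causes of these changes were not tested. On scan day 4 alone the number of arrays was smaller too, so it cannot be told apart from the day.

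Some values near 0, none of them called, changed sign. After chitin in Col-0 *ATERDJ3B* was -0.024 and *DER1* -0.12 on the values as deposited, and -0.057 and -0.082 after quantile normalization, and *CRT1b* in *rre2* was -0.10 and -0.21. For *BZIP28* in *atl9* against Col-0 after chitin blocking on scan day gave -0.036 and scan day 4 alone -0.056. For *BZIP60*, *rre2* against Col-0 after chitin was -0.14 on scan day 4 alone, and the response of *rre2* minus that of Col-0 came to 0.057 when blocked on scan day and 0.020 on day 4. *DER1* in *rre2* minus *atl9* was -0.056 after chitin and -0.16 for the response on day 4. Without 1 array, *CRT1b* ranged from -0.0086 to 0.14 for the response of *rre2* and from -0.13 to 0.025 for *rre2* against Col-0 in mock, and *ATERDJ3B* from -0.025 to 0.17 for the response of *rre2* minus that of Col-0. Without 1 array, *BZIP60* ranged from -0.17 to 0.052 and *BZIP28* from -0.11 to 0.12 for *atl9* against Col-0 after chitin, from -0.050 to 0.17 and from -0.19 to 0.043 for *rre2* against Col-0, and *BZIP60* from -0.18 to 0.046 and from -0.13 to 0.089 for the response of *atl9* and of *rre2* minus that of Col-0.

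*CRT1b* in Col-0 after chitin also missed the threshold without a filter (adjusted p = 0.0578), and *CRT1b* and *BZIP28* on day 4 alone (0.46 and 0.61). *DER1* over both treatments in *atl9* missed it without a filter, with the scan day as a block and without any 1 of 6 arrays (replicate 3 or 4 of *atl9* mock, 1 or 4 of *atl9* chitin, 1 of Col-0 mock, 4 of Col-0 chitin), at -0.27 to -0.30. Of all probe sets called after chitin in Col-0, 31.4% were higher on the values as deposited and 46.8% after quantile normalization.

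There was no clear sign that the replicate numbers pair the arrays, which does not show that they do not. With group means removed, the mean correlation was 0.0076 for the same number and -0.0023 for other numbers. Among 60 same-numbered pairs 16 had a correlation over 0.1 with group means removed, and for 9 of 24 arrays the closest array of another group had its number. With the replicate block the number of the 5 genes called was 3 for *atl9* against Col-0 after chitin and 2 over both treatments, where *DER1* was at -0.30 (adjusted p = 0.0611). It changed no other call of the 5 genes.

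For the further ER genes the number called of 24 ranged from 0 to 2 after chitin in Col-0, from 0 to 4 in *atl9*, and from 0 to 4 for *atl9* against Col-0 after chitin and over both treatments.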
